A study of Mus musculus with 6 samples.

Results

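Circadian clock genes encode the feedback loops that give most mammalian cells a daily rhythm. The genes described here are the 10 rows named Nr1d1, Nr1d2, Arntl, Clock, Per1, Per2, Per3, Cry1, Cry2 and Dbp, chosen by symbol among 24421 gene rows. All 10 were found and all 10 reached the level needed for testing, which was 1 FPKM in at least 3 samples (fragments per kilobase, relative to all mapped fragments). RNA was sequenced from colon tissue of C57BL/6 mice in 2 groups of 3 samples, labelled "7 week older" in both. The mice of one group had chronic colitis after dextran sulfate sodium (DSS), a polysaccharide that injures the colonic epithelium, and those of the other were controls. The sources used here give neither the dose and schedule of DSS nor the hour of day at collection. They also do not say that each sample is its own animal, so a p-value covers no more than sample-to-sample spread, possibly technical.

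In the core loop, the proteins of Arntl (also called Bmal1) and Clock pair and switch on genes that carry E-boxes, among them the Per and Cry genes, the Nr1d genes and Dbp. PER and CRY proteins then repress that pair. The Nr1d genes encode the REV-ERB receptors, which repress Arntl through RORE sites, where ROR receptors activate, and DBP, TEF, HLF and the repressor NFIL3 meet at D-boxes. Transcripts of these genes are known to cycle over the day in the gut, some peaking when others are at their lowest, so a level taken at a single unrecorded hour is 1 point on a cycle. Any difference in the hour of collection between the groups cannot be told apart from a difference between DSS and control colon.

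Of the 10 clock genes, 2 fell and 2 rose in DSS colon. Nr1d1 fell to a mean 5.24 times lower and Arntl to a mean 2.25 times lower, while Per2 rose 3.66-fold and Cry1 2.27-fold in mean FPKM. The other Per and Cry genes lay above the control range in every DSS sample without passing the test, and Nr1d2, Clock and Dbp overlapped between the groups. Of all 12348 tested genes, 8.9% were called, 6.34% higher and 2.56% lower (limma, Benjamini-Hochberg adjusted p under 0.05). Groups that did not overlap were seen for 7 of the 10 clock genes, 5 with DSS higher and 2 with DSS lower, against 25.6% and 9.51% of all tested genes (35.1% in either direction). The median difference of the clock genes was 0.41 on the log2(FPKM + 1) scale, against 0.13 for all tested genes. All log2 differences below are on that scale, DSS minus control, and understate the change of low genes.

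**Figure D1:**
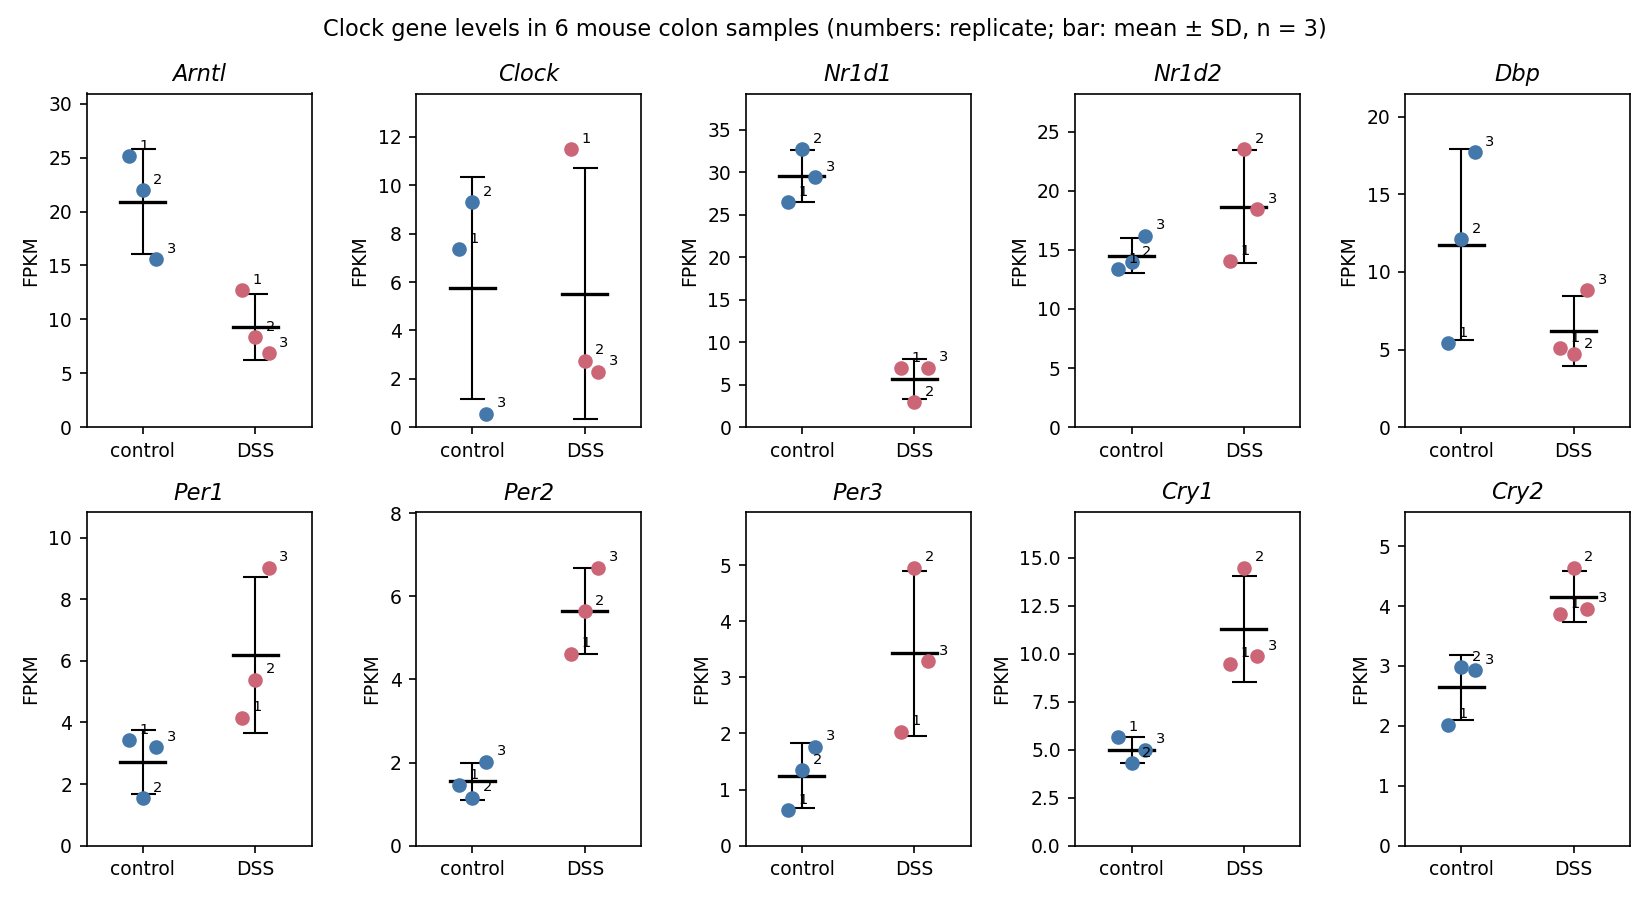
FPKM of the 10 clock genes (vertical axes, from 0, each gene on its own scale) in the 3 control and 3 DSS colon samples (points, numbered by replicate), with the mean and SD of each group as bars. The 3 DSS samples lie below all controls for Nr1d1 and Arntl and above all controls for the 3 Per and 2 Cry genes, and the groups overlap for Clock, Nr1d2 and Dbp.

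The DSS samples differed more among themselves than the controls. Pearson correlations of log2(FPKM + 1) over tested genes lay between 0.936 and 0.961 within DSS, 0.971 and 0.986 within control colon, and 0.892 and 0.937 between the groups. DSS 1 lay nearest the controls on the first principal component, at 18.98 against 51.17 and 47.53 in DSS 2 and DSS 3. All 8 absorptive colonocyte markers were measured, with a summed level of 2337 to 2455 FPKM in DSS and 4763 to 7194 FPKM in control colon, and 5 were called lower. The summed level of 10 smooth muscle markers was 1309 to 3622 FPKM in DSS and 3866 to 4863 FPKM in control colon, with 1 called lower. All 8 neutrophil markers were called higher, at 4102 to 6976 FPKM against 6.85 to 29.5 FPKM summed, and none of these 3 lists had a marker at 0 in a whole group. Further, 2 of 6 macrophage and 1 of 5 endothelial markers were called higher, and adipocyte markers split 2 higher and 2 lower among 4. Of 5 measured T cell markers 2 were tested and both were called higher, with summed control levels of 3.83 to 4.44 FPKM. Among all tested genes, 6.34% were called higher and 2.56% lower. A marker under 1 FPKM throughout 1 group could enter the test only through the other, as Adipoq did through the controls. Whether neutrophil and T cell markers did so is not reported here. None of 6 B and plasma cell, 6 fibroblast and 5 enteric neuron and glia markers was called (limma, 0, 1 and 1 at an unadjusted p under 0.05). The summed B and plasma cell markers varied widely within DSS, at 2639, 545 and 131 FPKM in DSS 1, 2 and 3. In control colon their sum was 523 to 731 FPKM. The part of these cell types in the clock gene differences was not tested. In pieces of colon, fewer cells of a type and less RNA per cell cannot be told apart.

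Among the activators, Arntl fell. Arntl encodes the partner of CLOCK and lies on chromosome 7, 113207465 to 113314126 (GRCm38). It had 25.2, 22.0 and 15.6 FPKM in control 1, 2 and 3 and 12.7, 8.36 and 6.84 FPKM in DSS 1, 2 and 3. Every DSS sample was below the lowest control, with the smallest gap between DSS 1 and control 3. The log2 difference was -1.10 ± 0.26 SE (limma adjusted p = 0.0427), or -1.24 relative to the median of all tested genes. The call was lost without DSS 2 (0.0885), DSS 3 (0.127), control 1 (0.123), control 2 (0.136) or control 3 (0.0673) and without the filter on low values (0.0772), with limma adjusted p of 0.0114 to 0.136 over 15 alternatives.

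A RORE core, the letters that REV-ERB and ROR receptors read, was found at the second of the 2 start windows listed for Arntl by RefSeq (GRCm38.p6). It begins 31 bases into the transcript, on the plus strand, within chr7:113207526-113207555. It is shown because Arntl is the textbook target of Nr1d1, and the core TAGGTCA is in capitals.
Arntl: agggaaggcagaaagTAGGTCAgggacgga

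Clock, the partner gene of Arntl on chromosome 5, varied too widely to be called. It had 7.36, 9.32 and 0.561 FPKM in control 1, 2 and 3 and 11.5, 2.75 and 2.30 FPKM in DSS 1, 2 and 3. The groups overlapped, with the highest sample in DSS and the lowest among the controls. The log2 difference was 0.07 ± 0.83 SE (limma adjusted p = 0.968, 95% interval -1.90 to 2.04), so neither a fall nor a rise of 2-fold lies outside the interval. Its sign turned under 5 of 15 alternatives. The spread within groups was 1.30 log2 units, against a median of 0.25 over all tested genes, and 0.753% of tested genes had a larger one. Single FPKM values in these files can fail: Gapdh, a glycolysis gene that every cell uses, was listed at 0 in DSS 1 and at 2.00, 0.117 and 0.145 FPKM in control 1, 2 and 3, against 21.4 and 36.1 FPKM in DSS 2 and DSS 3. Whether the low Clock values are of that kind was not tested.

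Npas2 and Arntl2, which encode close relatives of CLOCK and ARNTL, are the other activators of the wider list. Npas2 had 4.93, 4.10 and 5.12 FPKM in control colon and 2.97, 2.44 and 1.57 FPKM in DSS 1, 2 and 3. All DSS samples were below all controls, as for Arntl, but the test was missed (log2 difference -0.80 ± 0.21 SE, limma adjusted p = 0.0571). Npas2 passed without DSS 1 (0.0289) and under upper-quartile (0.0436), median-of-ratios (0.0468) and quantile scaling (0.0434), with limma adjusted p of 0.0289 to 0.187 over 15 alternatives. Arntl2 had 0.488, 0.377 and 0.344 FPKM in control colon and 1.95, 1.24 and 3.39 FPKM in DSS 1, 2 and 3, and rose (log2 difference 1.13 ± 0.26 SE, limma adjusted p = 0.0375). It reached 1 FPKM in the DSS samples alone, so it could enter the test only through the group where it was high. Its call was lost without DSS 3 (0.0693), control 1 (0.0987), control 2 (0.125) or control 3 (0.131), without the filter (0.0648) and with the replicate number as a block (0.0554), with limma adjusted p of 0.0186 to 0.131 over 15 alternatives.

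Nr1d1 had the largest difference of the 10 genes, and its paralogue Nr1d2 was not called. Nr1d1 encodes REV-ERB alpha and lies on chromosome 11, 98767932 to 98775333. It had 26.5, 32.7 and 29.4 FPKM in control 1, 2 and 3 and 6.95, 2.96 and 7.02 FPKM in DSS 1, 2 and 3. The highest DSS sample stood far below the lowest control, and DSS 2 was the lowest sample. The log2 difference was -2.27 ± 0.29 SE (limma adjusted p = 0.00453), or -2.40 relative to the median of all tested genes. It was called in all 15 alternatives, between -2.46 and -1.93 (limma adjusted p of 0.00212 to 0.0330). DSS 2 also had the lowest summed smooth muscle markers, at 1309 FPKM against 1900 and 3622 FPKM in DSS 1 and DSS 3. Among the DSS samples it was also lowest for summed absorptive colonocyte, fibroblast, endothelial, and enteric neuron and glia markers. It was highest for neutrophil and T cell markers. The part of these cell types in the Nr1d1 levels was not tested.

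The end of Nr1d1 overlaps the end of Thra, the thyroid hormone receptor alpha gene on the opposite strand, and 263 exonic bases lie in both. The library kit named in the labels does not record strand, so reads there cannot be told apart. Thra had 8.64, 11.3 and 12.8 FPKM in control 1, 2 and 3 and 7.26, 7.43 and 8.87 FPKM in DSS 1, 2 and 3. Its groups overlapped and it was not called (log2 difference -0.42 ± 0.18 SE, limma adjusted p = 0.185). The ratio of Thra to Nr1d1 was 0.326, 0.347 and 0.437 in control colon and 1.04, 2.51 and 1.26 in DSS 1, 2 and 3.

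Nr1d2, which encodes REV-ERB beta on chromosome 14, had 13.4, 14.0 and 16.2 FPKM in control 1, 2 and 3 and 14.0, 23.5 and 18.4 FPKM in DSS 1, 2 and 3. DSS 1 lay among the controls and the other DSS samples above them (log2 difference 0.32 ± 0.20 SE, limma adjusted p = 0.349, 95% interval -0.16 to 0.80). A transcript of the annotated gene AC170187.1 matches it at 96.1% over 1385 bases, so its values are uncertain. Within each sample, Nr1d2 stood at 0.504, 0.427 and 0.5505 times Nr1d1 in control 1, 2 and 3 and at 2.02, 7.94 and 2.62 times Nr1d1 in DSS 1, 2 and 3. The paralogues changed order in every DSS sample, and a scaling by 1 factor per sample leaves this ratio as it is. Arntl stood at 0.950, 0.672 and 0.530 times Nr1d1 in control colon and at 1.83, 2.82 and 0.9748 times in DSS 1, 2 and 3. DSS 3 and control 1 lay close together on that ratio.

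Rora and Rorb encode ROR receptors, which use the same sites as the REV-ERBs. Rora lay between 0.403 and 1.11 FPKM over all 6 samples and Rorb at 0.0869 FPKM or less, and neither was tested.

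All 3 Per genes, which encode the period repressors, were higher in each DSS sample than in any control, and Per2 was called. Per2 lies on chromosome 1, 91415982 to 91459324. It had 1.46, 1.15 and 2.02 FPKM in control 1, 2 and 3 and 4.62, 5.64 and 6.69 FPKM in DSS 1, 2 and 3. The lowest DSS sample exceeded the highest control by more than the spread within either group. The log2 difference was 1.39 ± 0.21 SE (limma adjusted p = 0.00919), or 1.25 relative to the median of all tested genes. The call was lost without control 2 (0.0518) and held in the other 14 alternatives, with limma adjusted p of 0.00529 to 0.0518 over all 15.

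Per1, which also answers quickly to hormones and stress, had 3.42, 1.53 and 3.21 FPKM in control 1, 2 and 3 and 4.16, 5.39 and 9.02 FPKM in DSS 1, 2 and 3. DSS 1 was close to the upper controls, and DSS 3 stood apart at the top (log2 difference 0.94 ± 0.32 SE, limma adjusted p = 0.107). Per3 had 0.630, 1.34 and 1.77 FPKM in control 1, 2 and 3 and 2.03, 4.95 and 3.29 FPKM in DSS 1, 2 and 3. DSS 1 was again the DSS sample nearest the controls (log2 difference 0.96 ± 0.30 SE, limma adjusted p = 0.0924). Per3 passed without DSS 1 (0.0299), with limma adjusted p of 0.0299 to 0.228 over 15 alternatives, and Per1 in none (0.0521 to 0.261). The Per3 gene lies wholly within the span of Camta1 on the same strand, with no exonic base in common.

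The 250 bases before the annotated starts of Per3 and Per1 are shown because both carry D-boxes, the sites of DBP, TEF, HLF and NFIL3. Capitals mark exact matches. Per3 (chr4:151044666-151044915, minus strand) holds TTATGTAA at 205 and at 158 bases before the start. Per1 (chr11:69098699-69098948, plus strand, the upstream of the 2 starts listed) holds the E-box CACGTG at 166 bases and the D-box TTATGCAA at 24 bases before the start.
Per3: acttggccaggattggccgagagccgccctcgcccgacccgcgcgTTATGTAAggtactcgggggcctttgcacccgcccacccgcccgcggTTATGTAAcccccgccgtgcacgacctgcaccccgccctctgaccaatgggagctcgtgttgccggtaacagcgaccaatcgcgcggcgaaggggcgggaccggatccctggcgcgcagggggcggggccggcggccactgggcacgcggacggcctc
Per1: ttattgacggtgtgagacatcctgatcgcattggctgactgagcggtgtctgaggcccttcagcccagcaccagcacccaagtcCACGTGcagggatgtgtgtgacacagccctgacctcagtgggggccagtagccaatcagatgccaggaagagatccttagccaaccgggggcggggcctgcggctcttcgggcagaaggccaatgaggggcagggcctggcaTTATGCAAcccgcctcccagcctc

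Cry1 rose, and Cry2 lay higher without passing. Both encode cryptochromes, the partners of the PER proteins. Cry1, on chromosome 10, 85131700 to 85185064, had 5.63, 4.30 and 5.0 FPKM in control 1, 2 and 3 and 9.48, 14.5 and 9.88 FPKM in DSS 1, 2 and 3. The 3 controls lay close together and DSS 2 was the highest sample. The log2 difference was 1.02 ± 0.20 SE (limma adjusted p = 0.0246), or 0.89 relative to the median of all tested genes. The call was lost under upper-quartile (0.0636), median-of-ratios (0.0637) and quantile scaling (0.0707), with the replicate number as a block (0.0546), and without DSS 3 (0.0600), control 1 (0.0590), control 2 (0.104) or control 3 (0.0947). Over 15 alternatives its limma adjusted p ran from 0.0169 to 0.104, and its difference from 0.84 to 1.146.

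Cry2 had 2.02, 2.97 and 2.93 FPKM in control 1, 2 and 3 and 3.86, 4.64 and 3.95 FPKM in DSS 1, 2 and 3. The groups did not overlap, but the gap was small (log2 difference 0.51 ± 0.18 SE, limma adjusted p = 0.123). The antisense gene D930015M05Rik shares 295 exonic bases with Cry2, and reads there cannot be told apart. Set against Arntl in the same sample, Cry1 stood at 0.224, 0.196 and 0.321 times Arntl in control colon and at 0.747, 1.73 and 1.44 times Arntl in DSS 1, 2 and 3.

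The 250 bases before the start of Cry1 (chr10:85185055-85185304, minus strand) hold AACGTG, the reverse complement of the related element CACGTT, at 79 bases and the E-box CACGTG at 60 bases before the start. They are shown because Cry1 was called and holds an E-box, the site of the ARNTL and CLOCK pair. The part of these sites in the Cry1 levels was not tested.
Cry1: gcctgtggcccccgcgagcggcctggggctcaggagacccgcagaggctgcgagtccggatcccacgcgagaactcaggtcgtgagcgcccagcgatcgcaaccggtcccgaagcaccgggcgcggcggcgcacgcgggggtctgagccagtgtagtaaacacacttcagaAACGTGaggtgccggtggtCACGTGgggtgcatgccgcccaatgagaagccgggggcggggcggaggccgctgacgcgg

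Dbp, the D-box activator that is usually among the most strongly cycling transcripts, was not called. It had 5.43, 12.1 and 17.7 FPKM in control 1, 2 and 3 and 5.07, 4.70 and 8.80 FPKM in DSS 1, 2 and 3. Control 1 lay within the DSS range and the other controls above it (log2 difference -0.74 ± 0.41 SE, limma adjusted p = 0.281, 95% interval -1.70 to 0.22). Dbp varied more within groups than all but 6.43% of tested genes. Sphk2, the sphingosine kinase gene that overlaps the end of Dbp on the opposite strand, shares 539 exonic bases with it. Sphk2 had 7.25, 13.3 and 17.2 FPKM in control 1, 2 and 3 and 11.3, 9.76 and 15.4 FPKM in DSS 1, 2 and 3, in the same order as Dbp within each group. Reads of the shared bases cannot be told apart.

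The controls differed from each other in several clock genes at once. Control 1, with the lowest Dbp, also had the lowest Per3, the lowest Tef (6.10 FPKM against 8.0 and 11.9) and the highest Arntl of the 3. Control 3, with the highest Dbp, had the highest Per3, the highest Tef and the lowest Arntl. Nr1d1 and Per2 did not follow that order, with Nr1d1 highest and Per2 lowest in control 2. Each of these orders rests on 3 samples and was not tested, and the hour of collection is not recorded.

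**Figure D2:**
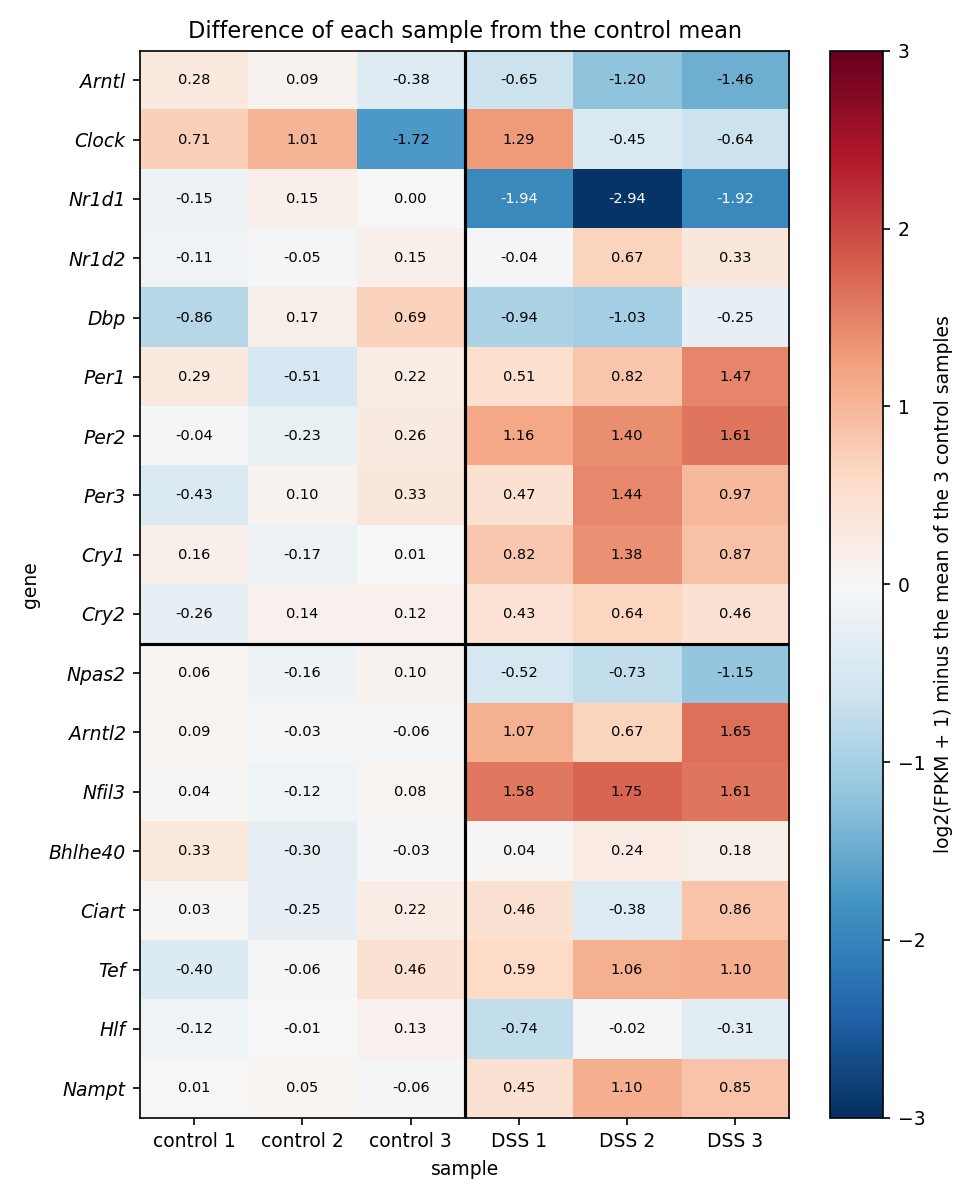
Log2(FPKM + 1) of each sample minus the mean of the 3 control samples (color and printed value), for the 10 clock genes above the line and genes of the wider clock list below it, in columns for control 1 to 3 and DSS 1 to 3. Nr1d1 stands at -1.94, -2.94 and -1.92 in DSS 1, 2 and 3 and Nfil3 at 1.58, 1.75 and 1.61, while Clock spans -1.72 to 1.01 among the controls alone.

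The D-box partners of Dbp did not move as 1 group. Nfil3, the D-box repressor that is itself a target of the REV-ERBs, rose from 2.25, 1.92 and 2.36 FPKM in control 1, 2 and 3 to 8.48, 9.70 and 8.66 FPKM in DSS 1, 2 and 3. Both groups were tight and far apart, with a mean 4.11-fold higher in DSS (log2 difference 1.65 ± 0.16 SE, limma adjusted p = 0.00164). The call held in all 15 alternatives (limma adjusted p of 0.00129 to 0.0150). Its ratio to Dbp was 0.415, 0.159 and 0.133 in control 1, 2 and 3 and 1.67, 2.07 and 0.984 in DSS 1, 2 and 3.

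Tef, a D-box activator like Dbp, had 13.1, 18.5 and 19.0 FPKM in DSS 1, 2 and 3, above all 3 controls (log2 difference 0.91 ± 0.25 SE, limma adjusted p = 0.0669). It passed without DSS 1 (0.0357) and with the replicate number as a block (0.0400), with limma adjusted p of 0.0357 to 0.189 over 15 alternatives. Hlf, the remaining member of that family, had 0.955, 1.10 and 1.33 FPKM in control and 0.270, 1.09 and 0.715 FPKM in DSS colon (log2 difference -0.36 ± 0.22 SE, limma adjusted p = 0.322). Tef stood at 1.12, 0.661 and 0.672 times Dbp in control colon and at 2.58, 3.95 and 2.16 times Dbp in DSS 1, 2 and 3.

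The 250 bases before the start of Nfil3 (chr13:52981040-52981289, minus strand) end close to a RORE core, read as TGACCTA, the reverse complement of TAGGTCA, at 12 bases before the start. It is shown because a start window of Arntl holds the same letters. The part of these sites in the levels of either gene was not tested.
Nfil3: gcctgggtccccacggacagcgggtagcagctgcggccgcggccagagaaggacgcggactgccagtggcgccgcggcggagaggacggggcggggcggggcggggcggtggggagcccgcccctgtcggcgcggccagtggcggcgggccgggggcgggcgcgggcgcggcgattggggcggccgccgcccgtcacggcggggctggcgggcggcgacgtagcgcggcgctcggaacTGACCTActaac

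In all, 7 letter patterns were searched on both strands in windows of 300 bases, from 250 before to 50 after each annotated start: CACGTG (E-box), CACGTT, the D-boxes TTATGTAA, TTACGTAA and TTATGCAA, and the RORE cores TAGGTCA and TGGGTCA. Among 32851 such windows of all genes, CACGTG was in 7.15%, CACGTT in 4.68%, TTATGTAA in 0.938%, TTACGTAA in 0.119%, TTATGCAA in 0.743%, TAGGTCA in 2.61% and TGGGTCA in 3.98%. No position was shared by matches of different patterns in the clock genes. The 9 clock genes with a window had 13 windows in all, of which 6 held at least 1 match, and 18.7% of all windows did. Nr1d1 held AACGTG, the reverse complement of CACGTT, at 28 bases before its start and Cry2 the same at 166 bases. Nr1d2, Clock and Dbp held none in these windows, which says nothing of sites elsewhere, and Per2 had no window to search. A match of letters is a description and not a measured binding site.

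**Figure D3:**
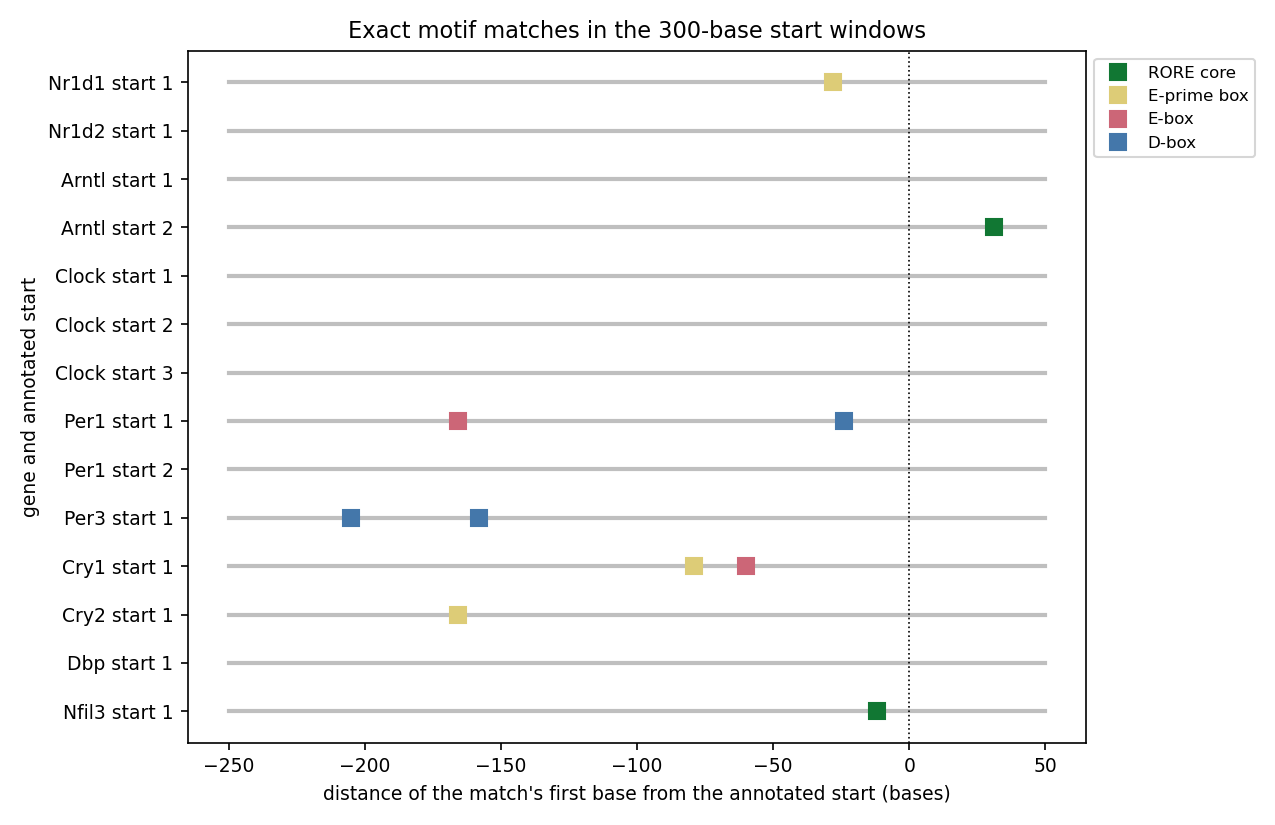
Exact matches of the searched patterns (colored squares) along the 300-base window around each annotated start of 9 clock genes and Nfil3, with the distance of the match from the start in bases on the horizontal axis. Per3 holds D-boxes at 205 and 158 bases before its start, and the RORE cores of Arntl and Nfil3 lie at 31 bases after and 12 bases before their starts.

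The wider clock list held 23 genes, of which 18 were tested, 3 were called higher (Arntl2, Nfil3 and Nampt) and 0 lower (limma, with 4 higher and 2 lower at an unadjusted p under 0.05, which 28.3% of all tested genes reached). Of the 3 called, Arntl2 entered the test only through the DSS samples. Among all tested genes, 6.34% were called higher and 2.56% lower, and this short list was not tested as a set. The 6 of 18 at the unadjusted p are near the background. The median difference of the 18 was 0.12, near that of all tested genes. Nampt, an enzyme of NAD synthesis under clock control that immune cells also express, had 20.8, 21.4 and 19.9 FPKM in control and 28.7, 45.4 and 38.0 FPKM in DSS colon (log2 difference 0.80 ± 0.19 SE, limma adjusted p = 0.0410). Its call held in 5 of 15 alternatives (limma adjusted p of 0.0101 to 0.141). It was lost under upper-quartile (0.114), median-of-ratios (0.107) and quantile scaling (0.0766), without the filter (0.0691), with the block (0.0573), and without DSS 2 (0.0730), DSS 3 (0.125), control 1 (0.103), control 2 (0.120) or control 3 (0.141).

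Apart from Nfil3, the repressors in the list were not called. Bhlhe40, an E-box repressor, had the highest levels among them, at 42.3, 27.1 and 32.9 FPKM in control and 34.7, 39.7 and 38.1 FPKM in DSS colon, with overlapping groups. Its relative Bhlhe41 lay between 0.332 and 0.610 FPKM over all samples and was not tested. Ciart, which represses the ARNTL and CLOCK pair, had 0.921, 0.578 and 1.18 FPKM in control and 1.58, 0.440 and 2.40 FPKM in DSS colon, with DSS 2 the lowest of all 6.

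Genes that modify or destroy clock proteins were taken as a further group. Of 9 kinases, ligases and partners 7 were tested and 0 were called in limma, with 1 at an unadjusted p under 0.05, Btrc. With 8.9% of all tested genes called and 28.3% at that unadjusted p, these counts are near the background. That ubiquitin ligase gene, which marks PER proteins for destruction, had 2.24, 2.14 and 2.16 FPKM in control and 1.47, 1.11 and 1.48 FPKM in DSS colon (log2 difference -0.44 ± 0.16 SE, limma adjusted p = 0.125). The kinase gene Csnk1e had 4.92, 4.72 and 5.15 FPKM in control and 4.88, 4.51 and 4.99 FPKM in DSS colon, with a 95% interval for the log2 difference of -0.38 to 0.32. Timeless, a replication fork gene, reached 1 FPKM in 2 samples and was not tested.

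**Figure D4:**
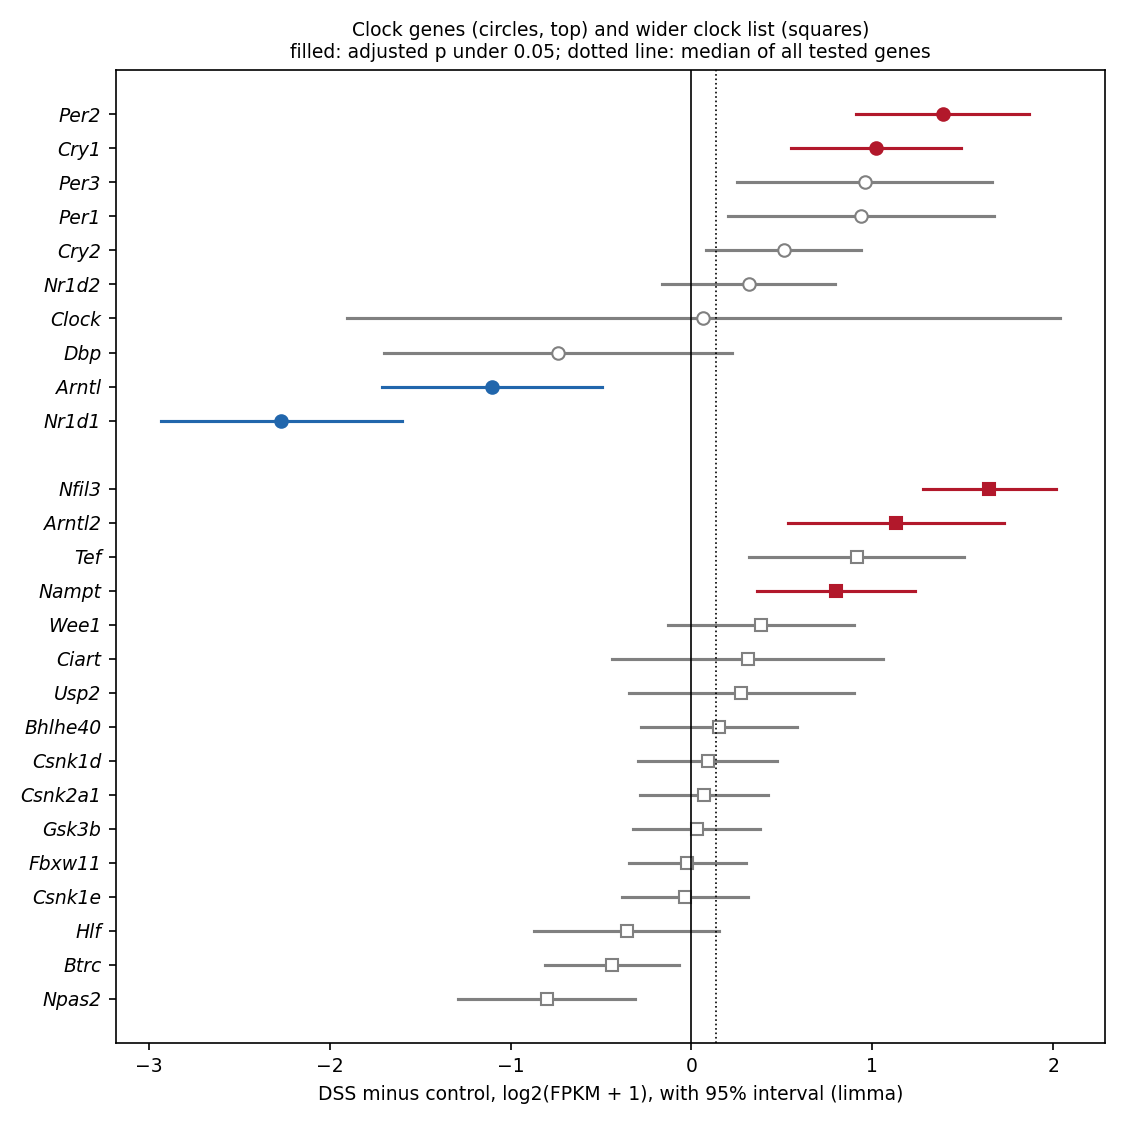
Difference between DSS and control colon on the log2(FPKM + 1) scale (horizontal axis) with its 95% interval from limma, for the 10 clock genes (circles) and tested genes of the wider list (squares). Filled symbols passed at an adjusted p under 0.05: Nr1d1 at -2.27 and Arntl at -1.10 are lower, and Per2 at 1.39, Cry1 at 1.02, Nfil3 at 1.65, Arntl2 at 1.13 and Nampt at 0.80 are higher.

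Because FPKM is scaled by length, the order of the levels can be read within a group. In control colon it ran from Nr1d1 (29.6 ± 3.11 FPKM, SD, n = 3) through Arntl (20.9 ± 4.88), Nr1d2 (14.5 ± 1.49), Dbp (11.7 ± 6.15), Clock (5.75 ± 4.60), Cry1 (4.98 ± 0.667), Per1 (2.72 ± 1.03), Cry2 (2.64 ± 0.536) and Per2 (1.54 ± 0.439) to Per3 (1.25 ± 0.574). Neighbours in that order had overlapping ranges except Nr1d1 over Arntl, Cry1 over Per1 and Cry2 over Per2. In DSS colon Nr1d2 led at 18.7 ± 4.75 FPKM, followed by Cry1 at 11.3 ± 2.77 FPKM and Arntl at 9.30 ± 3.04 FPKM. Dbp, Per1, Per2, Nr1d1 and Clock lay between 5.51 and 6.19 FPKM on average, Cry2 at 4.15 ± 0.425 FPKM and Per3 at 3.43 ± 1.47 FPKM. All neighbours overlapped in DSS colon, where the 10 mean levels spanned a narrower range than in control colon.

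Genes whose levels followed a clock gene most closely were sought over the 6 samples by Pearson correlation of log2(FPKM + 1), as a description without a test, since the 6 points share 2 groups and their scaling. For Nr1d1 these were Ptprz1 (0.997), Barx2 (0.996) and Pcp4l1 (0.996). Ptprz1 and Barx2 reached at most 0.698 and 0.616 FPKM in DSS colon, so both entered the test only through the controls. Pcp4l1 had 64.5, 71.7 and 61.4 FPKM in control and 34.9, 24.8 and 35.6 FPKM in DSS colon, with DSS 2 the lowest as for Nr1d1. For Arntl they were Dync1li1 (0.994), Pknox1 (0.992) and 1600012H06Rik (0.987). For Dbp they were Mlf2 (0.979), Slc48a1 (0.976) and Nrarp (0.971), and Mlf2 moved over a narrow range of 110.0 to 139 FPKM.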

How the data were processed

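RNA of 3 DSS and 3 control colon samples was measured by sequencing. The authors deposited one FPKM value per gene and sample, per the file headers. The submitters' processing notes name TopHat2 2.1.1 and mm10, and the program behind the FPKM values is not given in the sources used here. Per the labels' protocols, the second-strand module is non-directional. Sample-to-sample ratios of values under 0.5 FPKM did not pile up at steps of single reads (at most 1.55% fell in any bin 0.02 log2 units wide). Depth is therefore unknown. FPKM sums lay between 609544 and 678076. No 2 samples were identical.

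Groups came from the sample titles. The 12348 genes that reached 1 FPKM in 3 or more samples were fitted on group as log2(FPKM + 1), using limma 3.58.1 (R 4.3.3, two-sided, trend and robust), with Benjamini-Hochberg adjustment over all of them and a threshold of 0.05. The fit was tested on simulated data. An exact permutation test of 3 against 3 cannot go below 0.1. The wider list, markers and named genes followed written rules: all 10 clock genes, called and preset genes of the wider list (some are not reported here), genes overlapping a clock gene, and the 3 closest to Nr1d1, Dbp and Arntl. Btrc, Csnk1e, Timeless and Gapdh were chosen after their values were seen. The clock genes and lists were chosen with earlier results of these data known.

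Coordinates are from GENCODE M21 (GRCm38, which mm10 names). Start windows are RefSeq's (GRCm38.p6). Copies were sought with BLAST+ 2.17.0 at 95% identity over 200 bases. Figures used matplotlib 3.10.9. Alternatives covered scaling, pseudocount, filter, moderation, the replicate block and each sample left out.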

Additional observations from a re-analysis of the deposited data

How the results depend on the processing

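Of the 10 clock genes, 9 kept their sign in all 15 alternatives. Clock turned to -0.069 under upper-quartile, -0.059 under median-of-ratios and -0.080 under quantile scaling, and ran from -0.79 to 0.57 with 1 sample left out. The count of clock genes called higher, 2, was 1 under each of the 3 scalings and 1 with the replicate block, and 0 to 3 with 1 sample left out. The count called lower, 2, was 1 without the filter on low values and 1 to 2 with 1 sample left out. In the wider list, 3 higher became 2 under each of the 3 scalings and 2 with the replicate block. That count was 1 without the filter and 1 to 4 with 1 sample left out. In the same list, 0 lower became 1 under upper-quartile and median-of-ratios, 2 under quantile scaling and 0 to 1 with 1 sample left out. Over all tested genes, 783 higher and 316 lower became 505 and 532 under upper-quartile, 517 and 503 under median-of-ratios and 535 and 497 under quantile scaling, so the share of higher calls went from 71.2% to 48.7%, 50.7% and 51.8%. These scalings moved the median of all genes from 0.13 to -0.014, -0.0024 and -0.0095. With 1 sample left out the counts were 209 to 1165 higher and 79 to 606 lower, in fits of 5 samples. Without DSS 1 there were 1165 higher and 606 lower. The replicate block gave 640 higher and 255 lower. Same-numbered samples deviated together weakly (r of 0.082, 0.129 and 0.003), and DSS 3 correlated best with control 1 and not with its own number, so the numbers were not taken as pairs. Depth is unknown, so the precision of genes near 1 FPKM, Per2, Per3 and Arntl2 in control colon among them, cannot be stated.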

Other observations

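Genes that glucocorticoid hormone induces, Per1 being another, did not all move in the same direction. Of 5 such genes 4 were tested, 1 was called higher and 1 lower, beside 8.9% of all tested genes called either way. Fkbp5, which encodes a chaperone of the glucocorticoid receptor, had 26.9, 25.8 and 28.3 FPKM in control 1, 2 and 3 and 55.3, 101.4 and 71.1 FPKM in DSS 1, 2 and 3 (limma adjusted p = 0.0112). Klf9, a transcription factor gene that is also under clock control, had 18.8, 18.2 and 18.6 FPKM in control colon and 10.6, 6.58 and 7.81 FPKM in DSS colon (limma adjusted p = 0.0152). Tsc22d3 had 26.2, 26.6 and 25.7 FPKM in control and 35.2, 27.5 and 33.1 FPKM in DSS colon and was not called (limma adjusted p = 0.267). The groups did not overlap for Fkbp5, Klf9 and Tsc22d3, as for 35.1% of all tested genes. Sgk1 had 138, 73.4 and 103 FPKM in control and 155, 162 and 107 FPKM in DSS colon. Its groups overlapped and it was not called (limma adjusted p = 0.298). Zbtb16 lay between 0.523 and 1.26 FPKM over all samples and was not tested.

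Genes of the immediate early response rise within minutes of handling, and Per1 also belongs to them. Of 7 listed genes 6 were tested and 0 passed in limma. At an unadjusted p under 0.05 there were 3, Fos, Jun and Junb, each lower in DSS colon. Of the other tested genes, Atf3 went the other way (log2 difference 0.26 ± 0.24 SE). Ier2 (-0.12 ± 0.17 SE) and Egr1 (-0.60 ± 0.62 SE) leaned lower. The groups overlapped for Atf3, Ier2 and Egr1, so the list did not move as a whole. Of all tested genes, 8.9% were called and 28.3% reached that unadjusted p, so a count of 0 among 6 is near the background. The 3 of 6 lie above the 28.3%, in a short list that was not tested as a set. The summed level of all 7 listed genes was 229.8 to 304.9 FPKM in DSS and 330.9 to 388.9 FPKM in control colon. Per1 lay above the control range in every DSS sample but was not called (limma adjusted p = 0.107). The part of handling in these levels was not tested. Junb had 177, 138 and 188 FPKM in control and 107, 103 and 115 FPKM in DSS colon (limma adjusted p = 0.0538). Egr1 ranged from 4.65 to 26.5 FPKM among the controls and from 4.55 to 14.3 FPKM among the DSS samples.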
